A study of Homo sapiens with 6 samples.

Results

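Bile acids are made from cholesterol in hepatocytes, carried into bile and returned to the liver, and the 9 genes described here encode enzymes and transporters of that cycle. The enzymes are CYP7A1, CYP8B1 and CYP27A1, and the transporters are SLC10A1, ABCB11, SLC51A, SLC51B, ABCC2 and ABCC3. They were chosen by their Ensembl transcript IDs from a list that pairs each ID with a gene symbol, and all 9 were present among the 65527 rows of the expression table. The symbols come from that list alone. Each gene stands for its listed transcript row, and any rows for its other transcripts could not be named or examined. The deposited table holds IDs only, and the RefSeq gene table used for naming matched 0 of its rows.

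The samples were HepG2 cells, a hepatocyte-like line derived from a human liver tumour, grown in low-glucose DMEM with 10% FBS, 1% pen-strep and 25 mM HEPES. In 1 group of 3 samples the cells had received 24 mM boric acid, the concentration labelled as half-maximal inhibitory, for 24 hours, and in the other group of 3 they were untreated. Total RNA of each sample was hybridised to 1 Affymetrix HuGene 1.0st array, and each row of the table is a log2 signal of 1 transcript made with RMA, which corrects background, equalises the arrays' distributions and combines the probes of a row. Separate cultures are not mentioned in the labels, so the p-values cover sample-to-sample spread that may be technical.

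In the liver, synthesis runs along a classical route that starts with cholesterol 7-alpha-hydroxylase (CYP7A1), its rate-limiting enzyme, and an alternative route that starts with the mitochondrial sterol 27-hydroxylase (CYP27A1). Bile acids enter hepatocytes from the blood through SLC10A1, leave into bile through ABCB11 and ABCC2, and can leave back into the blood through SLC51A with SLC51B and through ABCC3. The nuclear receptor FXR senses bile acids, and its activation is known to lower CYP7A1 and to raise ABCB11, SLC51A and SLC51B. Boric acid is a weak boron-containing acid.

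After boric acid, CYP27A1 was the single gene of the 9 that passed the test, and its signal fell by 1.06 on the log2 scale. The other 8 did not pass, among them both subunits of the basolateral exporter and the exporters ABCC2 and ABCC3. Of the 9 genes, 1 was called lower and 0 higher by limma (adjusted p below 0.05, Benjamini-Hochberg over all 65527 rows), while 24.1% of all rows were called, 12.4% higher and 11.7% lower. At an unadjusted p below 0.05 there were 2 of the 9, CYP27A1 and ABCC2, against 35.7% of all rows. Over the processing alternatives this count ranged from 1 to 3, and the signal filters tested only 3 of the 9 genes. The share of all rows at this unadjusted threshold was not computed for the alternatives. The median log2 fold change was 0.05 over the 9 genes and 0.003 over all rows. Arrays of the 2 groups did not overlap for 1 of the 9 genes, against 40.4% of all rows. All differences are boric acid minus control, and because RMA equalises the arrays they are relative to the array as a whole.

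**Figure D1:**
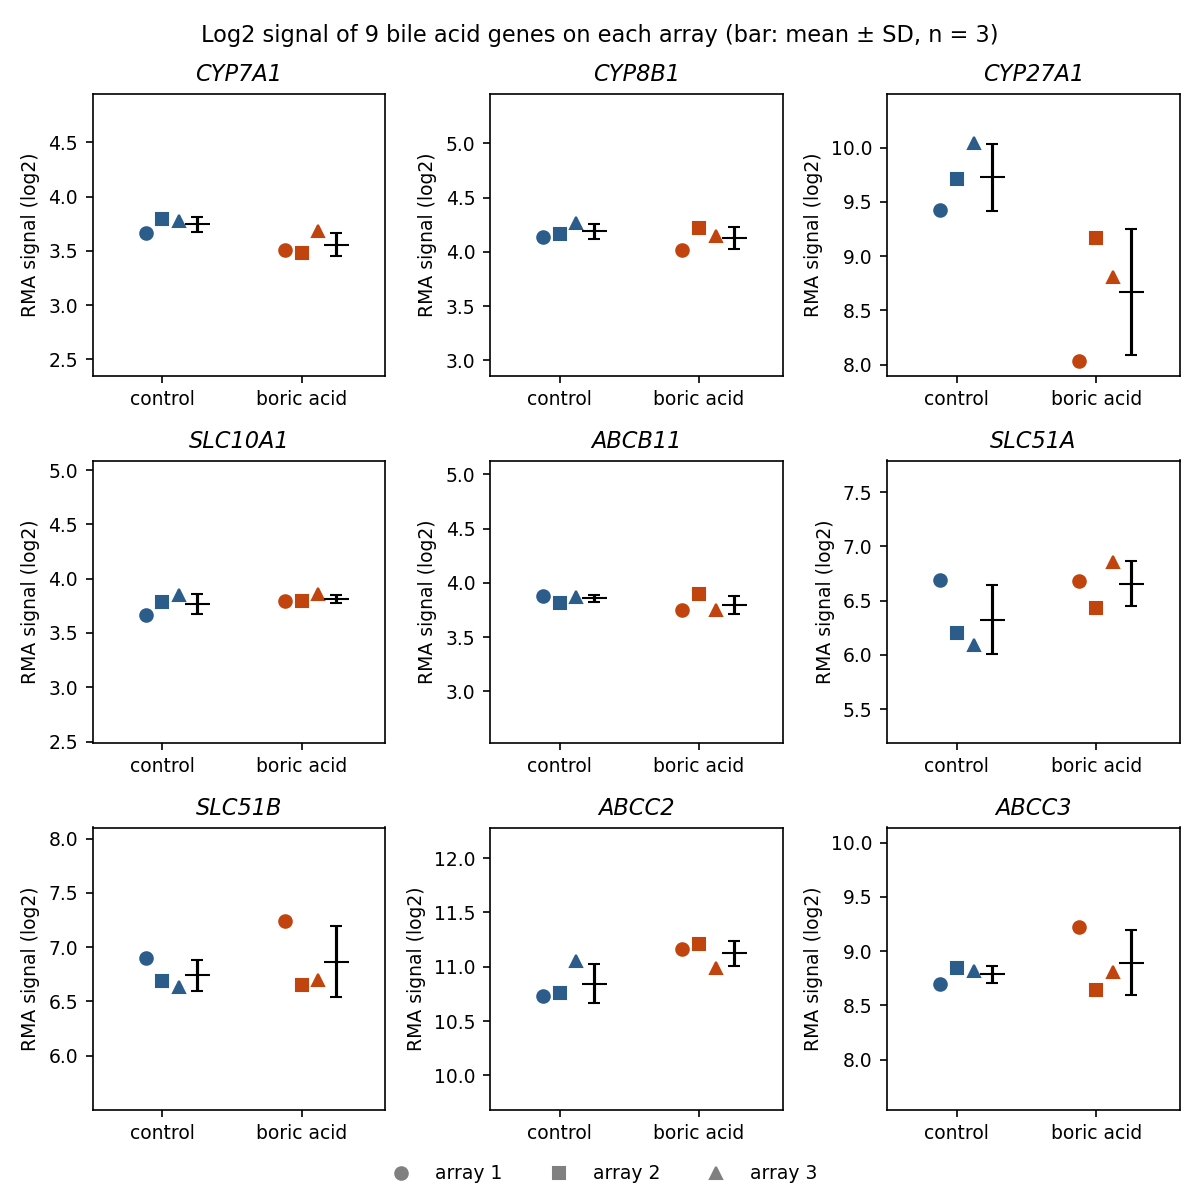
RMA log2 signal (y axis, 1 panel per gene, all panels spanning the same number of log2 units) on each control and boric acid array, with symbols for arrays 1 to 3 of a group and bars for the mean ± SD (n = 3). The groups are apart for CYP27A1 and overlap for the other 8 genes.

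CYP27A1 (row ENST00000258415.8_at) makes 27-hydroxycholesterol, which is the first step of the alternative route, and also oxidises the side chain in the classical route. Its log2 signal was 8.03, 9.16 and 8.81 on boric acid arrays 1 to 3 and 9.43, 9.71 and 10.04 on control arrays 1 to 3. The highest treated array lay below the lowest control array, and boric acid array 1 was the lowest of all. The means were 8.67 ± 0.58 with boric acid and 9.73 ± 0.31 without it (SD, n = 3 each). The signal thus fell by 1.06 on the log2 scale with a standard error of 0.29, which is 2.08-fold lower, with a 95% confidence interval of 1.29-fold to 3.36-fold (limma, adjusted p = 0.038). A decrease of at least 2-fold past the same threshold was called for 2.78% of all rows, and CYP27A1 ranked at the 2.58th percentile of log2 fold changes over the table. Between arrays of the same number the difference was -1.39, -0.55 and -1.23. The exact two-sided permutation test over the 6 arrays gave p = 0.1, the smallest that 3 against 3 arrays allow.

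The call for CYP27A1 was close to the threshold. It was lost without boric acid array 3 (log2 fold change -1.13, limma adjusted p = 0.077), without control array 1 (-1.21, adjusted p = 0.052), without control array 2 (-1.07, adjusted p = 0.10) and without control array 3 (-0.90, adjusted p = 0.12). Boric acid array 1 differed from treated arrays 2 and 3 by a median of 0.173 and 0.175 on the log2 scale over all rows, against 0.115 between those 2. Without it the change was -0.74 and still past the threshold (limma, adjusted p = 0.037), and with array weights, which let deviating arrays count less, it was -0.88 (adjusted p = 0.028). Without boric acid array 2 it was -1.30 (adjusted p = 0.024).

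**Figure D2:**
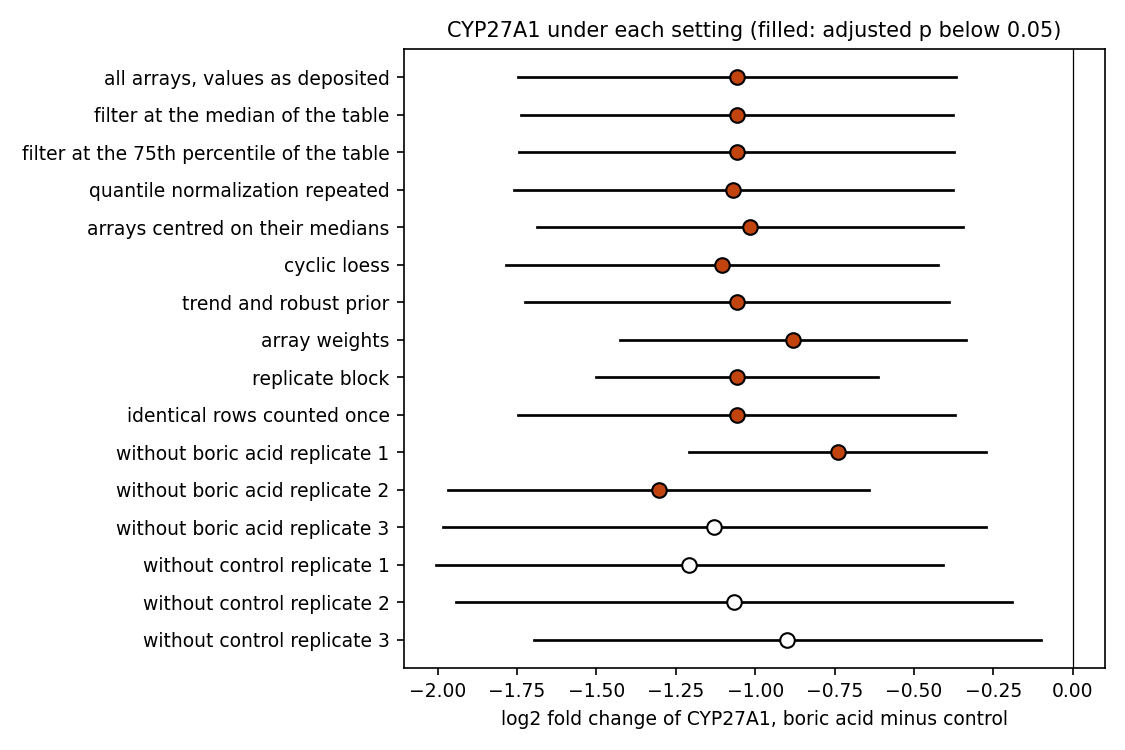
Log2 fold change of CYP27A1 (x axis, boric acid minus control) with its 95% confidence interval under each processing setting and with each array left out (y axis), filled where limma's adjusted p was below 0.05. Every estimate is below 0, from -1.30 to -0.74, and the 4 open points each leave out 1 array.

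The stretch before the start of CYP27A1 is shown because it is the gene that passed the test. It covers the 250 bases upstream of the RefSeq start at chr2:218781897-218782146 (GRCh38.p14, plus strand), and would carry any match to a searched motif in capitals. Its GC content is 68.8%, against a median of 58% over the 35116 RefSeq promoters at hand.
CYP27A1 promoter: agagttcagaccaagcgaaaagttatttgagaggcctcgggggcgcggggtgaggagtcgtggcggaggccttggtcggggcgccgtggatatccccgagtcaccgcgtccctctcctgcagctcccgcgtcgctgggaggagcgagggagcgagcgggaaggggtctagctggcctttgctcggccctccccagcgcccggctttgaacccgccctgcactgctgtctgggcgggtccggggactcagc
The motifs searched on both strands were AGGTCA, the nuclear receptor half-site, CAAAGTC, a core of HNF4A sites, and GTTAAT, a half-site of HNF1. They occur in 12.1%, 2.91% and 6.23% of 35116 RefSeq promoters, and this window held 0 matches to them. The promoters of CYP7A1, CYP8B1 and ABCC3 were not among these and were not searched. Of the 6 genes whose promoter was in the RefSeq table, SLC10A1 and SLC51B held AGGTCA, and 0 held either of the others. These letters describe the windows and were not set against the expression changes.

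The hydroxylases CYP7A1 and CYP8B1, the uptake carrier and the bile salt export pump gave dim signals. CYP7A1, CYP8B1, SLC10A1 and ABCB11 lay below the lower quartile of all 6 arrays (4.65 to 4.69). Of these 4, 0 were called by limma (0 also at an unadjusted p below 0.05, which CYP7A1 reached in 2 of the alternatives). By the same test 1.36% of the 14294 rows that lie as low on every array were called. Of the other 5 genes 1 was called, CYP27A1, against 30.4% of the other rows. That division of rows was made after the values had been seen. Background was not measured here, so whether these transcripts were expressed at all cannot be read from the signal, and a change in them may be compressed.

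CYP7A1 (row ENST00000301645.3_at) had log2 signals of 3.51, 3.48 and 3.68 on the boric acid arrays and 3.66, 3.79 and 3.78 on the control arrays. The treated arrays were mostly the lower ones, but boric acid array 3 exceeded control array 1. The log2 fold change was -0.19 with a standard error of 0.09 and a 95% interval of -0.40 to 0.03 (limma, adjusted p = 0.20). Its unadjusted p was 0.082, and fell to 0.047 in limma with a trend and robust prior and to 0.043 without boric acid array 3. In limma it rose to 0.15 with arrays centred on their medians and to 0.21 without boric acid array 2. Over the 13 alternatives that tested CYP7A1 its limma adjusted p ranged from 0.14 to 0.42. CYP8B1 (row ENST00000316161.5_at), the 12-alpha-hydroxylase that sets the share of cholic acid in the bile acid pool, had signals of 4.02, 4.22 and 4.15 in boric acid and 4.14, 4.16 and 4.27 in control cells. Its arrays were interleaved, with a log2 fold change of -0.06 and a 95% interval of -0.28 to 0.15 (limma, adjusted p = 0.70).

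SLC10A1 (row ENST00000216540.4_at), the sodium-dependent uptake carrier NTCP, had log2 signals of 3.79, 3.80 and 3.85 in boric acid and 3.66, 3.78 and 3.85 in control cells. The treated arrays lay within a narrow band (SD 0.035, n = 3) that the control arrays overlapped. The log2 fold change was 0.05 with a 95% interval of -0.15 to 0.25 (limma, adjusted p = 0.74). ABCB11 (row ENST00000263817.6_at), the bile salt export pump of the canalicular membrane, had signals of 3.75, 3.90 and 3.75 in boric acid and 3.88, 3.81 and 3.87 in control cells. Boric acid array 2 was the highest of the 6 and the other treated arrays the lowest, and the log2 fold change was -0.06 with a 95% interval of -0.25 to 0.14 (limma, adjusted p = 0.70).

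The 2 subunits of the organic solute transporter, which works as a heteromer in the basolateral membrane, gave signals near the middle of the arrays. SLC51A (row ENST00000296327.9_at) had log2 signals of 6.68, 6.44 and 6.85 in boric acid and 6.69, 6.20 and 6.09 in control cells. Control array 1 lay among the treated arrays, and the other control arrays lay below all of them. The log2 fold change of 0.33 had a standard error of 0.18 and a 95% interval of -0.09 to 0.76 (limma, adjusted p = 0.25). It moved to 0.51 without control array 1 (adjusted p = 0.057) and to 0.21 without control array 3 (adjusted p = 0.53). SLC51B (row ENST00000334287.2_at) had signals of 7.24, 6.66 and 6.70 in boric acid and 6.90, 6.69 and 6.63 in control cells. Boric acid array 1 was the highest, and the other treated arrays lay within the range of the controls. The log2 fold change was 0.13 with a 95% interval of -0.28 to 0.53 (limma, adjusted p = 0.67), and it became -0.06 without boric acid array 1.

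ABCC2 and ABCC3 are multidrug resistance-associated exporters of conjugated organic anions. ABCC2 (row ENST00000370449.8_at), which sits in the canalicular membrane, gave signals between the 96.1th and 97.6th percentile of their arrays. Its log2 signals were 11.16, 11.21 and 10.99 in boric acid and 10.73, 10.75 and 11.05 in control cells. Control array 3 exceeded boric acid array 3, and the other 2 control arrays lay below every treated array. The log2 fold change was 0.28 with a standard error of 0.12 and a 95% interval of 0.001 to 0.56, which did not pass after adjustment (limma, adjusted p = 0.14). Its unadjusted limma p of 0.0495 moved both ways. It became 0.082 with the replicate block, 0.074 after cyclic loess and 0.145 without control array 1. It fell to 0.027 with arrays centred on their medians, 0.035 with a trend and robust prior and 0.012 without control array 3. Over the 15 alternatives its limma adjusted p ranged from 0.064 to 0.32.

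ABCC3 (row ENST00000285238.12_at), the basolateral exporter, had log2 signals of 9.22, 8.65 and 8.81 in boric acid and 8.69, 8.84 and 8.82 in control cells. Boric acid array 1 was the highest and boric acid array 2 the lowest of the 6, so the control arrays lay inside the treated range. The log2 fold change was 0.11 with a 95% interval of -0.25 to 0.47 (limma, adjusted p = 0.69), and it became -0.06 without boric acid array 1.

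**Figure D3:**
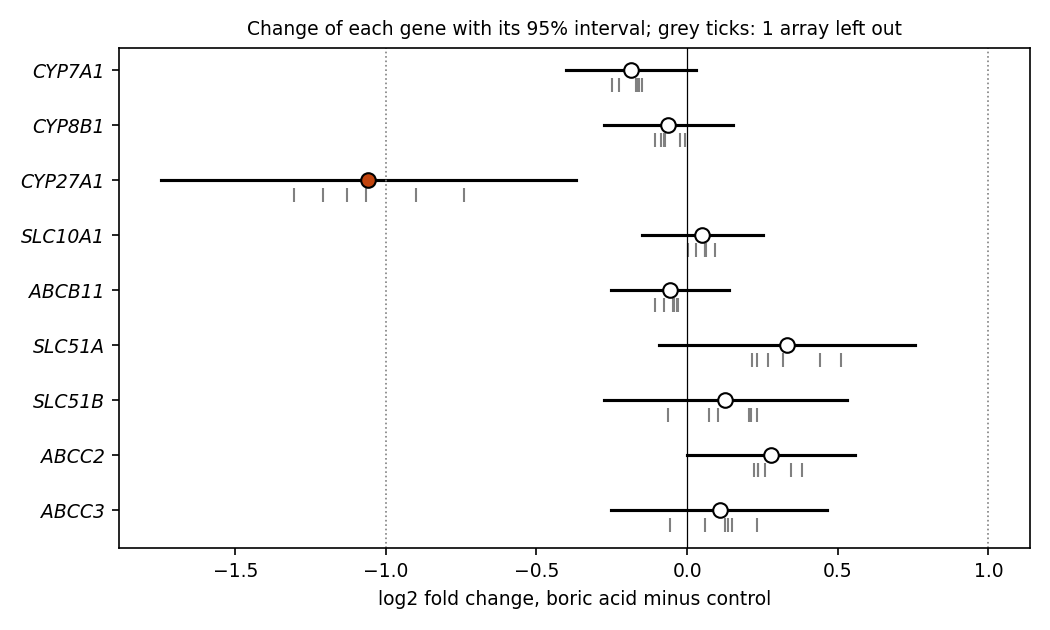
Log2 fold change (x axis, boric acid minus control) of each gene (y axis) with its 95% confidence interval, filled where the adjusted p was below 0.05; grey ticks give the value with each of the 6 arrays left out, and dotted lines mark a 2-fold change. The intervals of the 8 genes that were not called span -0.40 to 0.76 and lie inside the dotted lines.

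For the 8 genes that were not called, the 95% intervals of the fit to all 6 arrays ran from -0.40 to 0.76 on the log2 scale. On the array scale a decrease of more than 1.32-fold or an increase of more than 1.69-fold lay outside all of these intervals. This bounds the change in signal in that fit and does not show that the transcripts were equal. The lower bound is that of CYP7A1, a dim row whose change may be compressed. With 1 array left out the limits were wider, reaching -0.48 for CYP7A1 without boric acid array 3 and 0.91 for SLC51A without boric acid array 2. By the sign of the mean, 5 of the 9 genes were higher and 4 lower in boric acid. The 9 rows had values of their own, since 0 of them repeated the values of another row.

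**Figure D4:**
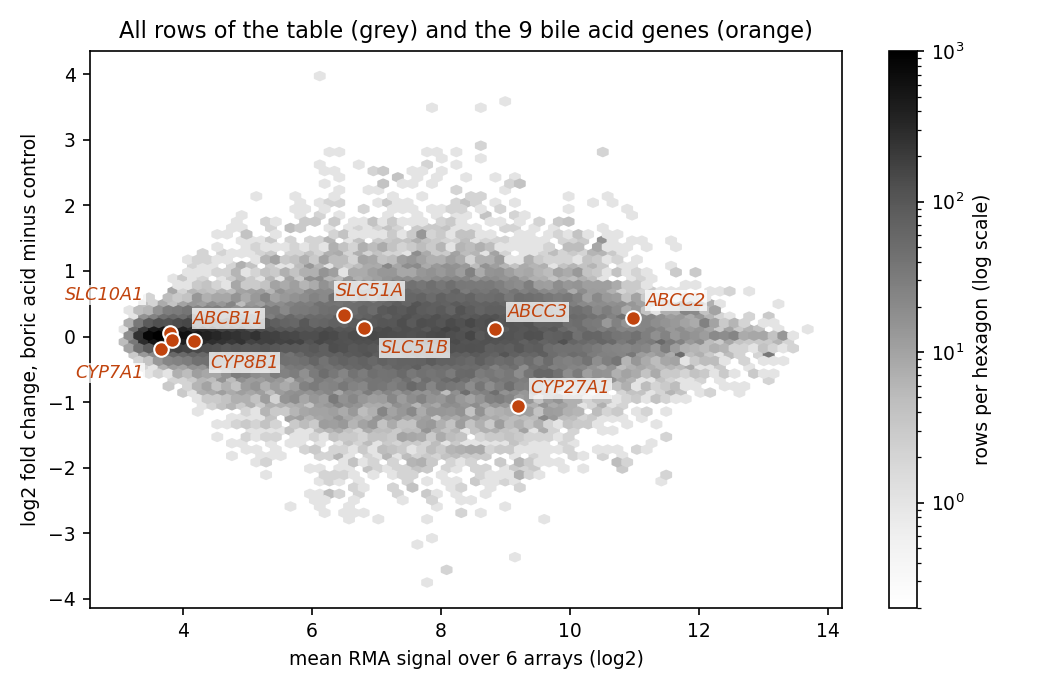
Mean RMA log2 signal over the 6 arrays (x axis) against the log2 fold change, boric acid minus control (y axis), for all 65527 rows as hexagons shaded by the number of rows, with the 9 genes as labelled points. CYP7A1, CYP8B1, SLC10A1 and ABCB11 sit at the dim end, where the spread of changes over all rows is narrow, and CYP27A1 lies at -1.06.

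Whether functionally linked genes changed unequally was asked for 5 pairs, by the difference of their log2 signals within each array. In 3 of these pairs 1 or both genes were among the dim ones, where such a difference cannot be interpreted, and their values are only listed. CYP7A1 minus CYP27A1 shifted by 0.87 without overlap of the groups (exact permutation p = 0.1). With 1 array left out, this shift ranged from 0.58 to 1.154. CYP7A1 minus CYP8B1 shifted by -0.12 and SLC10A1 minus ABCB11 by 0.11 (exact permutation p = 0.3 for each), and the groups overlapped. For SLC51A and SLC51B the difference shifted by 0.21 (exact permutation p = 0.7), with values of -0.56 to 0.16 in boric acid and -0.54 to -0.21 in control cells, so the subunits were not shown to differ in their response. With 1 array left out, that shift ranged from 0.023 without boric acid array 3 to 0.381 without boric acid array 1. For ABCC2 and ABCC3 the shift was 0.17 (exact permutation p = 0.6), the groups overlapped, and it ranged from 0.003 without boric acid array 2 to 0.316 without boric acid array 1. The smallest p that this design allows is 0.1.

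Other genes of the pathway could not be described. A list of 34 further genes was drawn up (FXR and SHP, the FGF19 receptor, conjugating enzymes, other carriers and sterol oxidases), with 23 markers of hepatocytes and other liver cells, and 0 of either list could be matched to a row by symbol. The labelled cell line was therefore not checked against its markers. A lower signal in a bulk sample can reflect a smaller share of cells that express a transcript, or less of it per cell relative to other RNA. These cannot be told apart here.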

How the data were processed

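Values were used as deposited: 1 log2 signal per row and array, made by the authors with RMA, per the submitters' processing notes (version not given there). The log2 scale was read from the values. Rows are named by Ensembl transcript ID. The probe set definitions, genome build and any filter are not given in the sources used. Scanner files were not used here.

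The 6 arrays were compared with limma 3.58.1 in R 4.3.3 (lmFit, eBayes, no covariate, no signal filter, 4 residual and 3.11 prior degrees of freedom, two-sided, Benjamini-Hochberg over 65527 rows, threshold 0.05). The number of arrays limits precision (median standard error 0.114). The fit was tested on simulated data, with each row and array drawn independently. That check held no array effect or pairing, so it does not bear on the calls made here. All 9 genes are named, by rule. Genes and lists were chosen with earlier results of these data known. Motifs were searched in RefSeq promoter sequences (GRCh38.p14) with Python 3.11.15.

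Deviations from group means correlated between same-numbered arrays by 0.384, 0.111 and 0.128 over all rows, above the limit of 0.1, so numbers were treated as pairs in an alternative fit. The labels do not state a pairing. Array 2 of the boric acid group correlated more with control array 3 (0.256), and array 3 more with control array 2 (0.139). Other alternatives were signal filters, 3 other scalings, another variance prior, array weights, identical rows counted once, and each array left out.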

Additional observations from a re-analysis of the deposited data

How the results depend on the processing

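The decrease of CYP27A1 kept its direction in all 15 alternatives and passed limma's threshold in 11, with log2 fold changes of -1.30 to -0.74. Of the 6 fits that left out an array, 2 passed. The other alternatives used the same 6 arrays and are not independent of the first fit. The 4 losses each left out 1 array: -1.13 without boric acid array 3, -1.21, -1.07 and -0.90 without control arrays 1, 2 and 3. The number of the 9 genes called, and called lower, ranged from 0 to 1 over the 6 fits that left out an array. In those fits 15.8% to 23% of all rows were called in either direction. The replicate block changed no call among the 9 genes, and gave CYP27A1 a log2 fold change of -1.058 with a limma adjusted p of 0.012. No other gene of the 9 passed in any alternative. Directions turned for ABCC3 with array weights (-0.006) and without boric acid array 1 (-0.057), and for SLC51B without that array (-0.062), and neither gene was called there. With 1 array left out, they spanned -0.057 to 0.231 and -0.062 to 0.232. The filter at the median of the table (6.888, on at least 3 arrays) kept 3 of the 9 genes, CYP27A1, ABCC2 and ABCC3, and so did that at the 75th percentile. Under the latter, 8194 of 17458 rows tested were called (4579 higher, 3615 lower), which is 46.9% against 24.1% without a filter. Under the median filter 42.2% were called. CYP27A1 was the 1 gene of the 3 called under each filter. With 1 array left out, 10366 to 15040 rows were called (5044 to 7672 higher, 5037 to 7368 lower). The dim signal of 4 genes limits what could be seen of them.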
